A study of Mus musculus with 3 samples.

Results

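Piezo1 and Piezo2 encode mechanically gated cation channels, and Asic1, Asic2, Asic3 and Asic4 encode the acid-sensing ion channels (ASICs), sodium-permeable channels of the degenerin and epithelial sodium channel superfamily. These 6 genes were taken by symbol from the 32227 genes of the count matrices, and all 6 had UMIs (unique molecular identifiers, each counting 1 captured RNA molecule) in the kept nuclei of every library. PIEZO channels open when the membrane is stretched or indented. In the dorsal root ganglia (DRG), which hold the cell bodies of sensory neurons, PIEZO2 transduces light touch and the stretch of muscle, whereas PIEZO1 is best known from endothelial and blood cells. ASICs open when the extracellular pH falls, and ASIC3 is known for its place in the pain of muscle and inflamed tissue.

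The RNA came from nuclei of frozen lumbar DRG (L3 to L5) of C57BL/6 mice, described as wild type, taken at 3 months of age for 1 library (adult) and at 21 months for 2 libraries (aged). No injury or drug is given for these libraries, and the study calls the libraries biological replicates. How many animals stand behind each is not given in the sources used here, so that p-values measure only the spread between libraries. The adult library held 167664164 UMIs and the aged libraries 95647106 and 69045987, and 11518, 5130 and 2611 nuclei had over 1000 genes, at medians of 3269, 4317.5 and 4900 UMIs per nucleus. At most 1 of these barcodes was shared by any 2 libraries. All 3 libraries were labelled male, but Xist, the transcript of the inactive X chromosome of females, stood in neurons at 1152 CPM (UMIs of a gene scaled to a common total per sum) for the adult and at 649 and 796 CPM for the aged samples, and the Y-linked genes Ddx3y at 17.8, 11.1 and 6.53 CPM and Uty at 3.03, 0.866 and 0.825 CPM. The study's list of mice gives the aged mice as female. The sex of the mice behind each library is therefore uncertain, and it was not used.

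Nuclei were clustered without the 6 genes and named from markers, which gave 9 classes with 20 or more nuclei in every library: neurons, satellite glial cells (SGCs), non-myelinating and myelinating Schwann cells (NMSC, MSC), 3 kinds of fibroblasts marked by Slc47a1, Pax9 or Pdgfra, endothelial cells and myeloid cells. Each name stands for a likeness in markers (a neuron is a neuron-like nucleus), not for an identity shown by other means. All markers of the neuron, MSC, endothelial, myeloid and fibroblast classes were highest in the class of that name, against 2 of 5 for SGCs and 4 of 8 for NMSC. Neurons, with 4243, 2248 and 1234 nuclei, were clustered again into 11 subtypes. Of these, the Mrgpra3 cluster is named from the markers Mrgpra3 and Mrgprx1 only, and the Htr3a cluster by a leading gene only. The 3 A-fiber subtypes shared a marker list, of whose 13 genes 3 to 5 were highest in any one of them. Malat1, an abundant nuclear transcript, is given beside the age comparisons as a sign of RNA quality: its share of the UMIs of kept nuclei was 5.0% in the adult and 1.47% and 1.61% in the aged libraries.

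In the GRCm38 (mm10) annotation of GENCODE M21, Piezo1 lies on chromosome 8 (122481698 to 122551329, minus strand), Piezo2 on chromosome 18 (63010213 to 63387183, minus strand), Asic1 on chromosome 15 (99670368 to 99701130, plus strand), Asic2 on chromosome 11 (80880169 to 81968457, minus strand), Asic3 on chromosome 5 (24413392 to 24417835, plus strand) and Asic4 on chromosome 1 (75450436 to 75474343, plus strand). The lengths of these genes range from 4.44 kb for Asic3 to 1088 kb for Asic2, so that levels of different genes were compared only per length. Asic1 and Asic3 overlap no other annotated gene. Piezo1 overlaps 3, among them Ctu2 on the opposite strand, Piezo2 overlaps 2, Asic4 overlaps 1 and Asic2 overlaps 6. Whether intronic reads or strand entered the counts is not given in the sources used here.

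In neurons the 3 libraries together held 236712 UMIs of Asic2 and 197509 of Piezo2, and 13875 of Asic3, 3958 of Asic1, 562 of Piezo1 and 101 of Asic4 over the 3 libraries. Per kilobase of gene, the mean neuronal level over the 3 libraries was highest for Asic3 (22.1 CPM per kb), followed by Piezo2 (3.73), Asic2 (1.55), Asic1 (0.945), Piezo1 (0.0645) and Asic4 (0.0278). Per kilobase of exon the order changed at the top, with Asic2 at 396 CPM per kb, Piezo2 at 82.0 and Asic3 at 40.5, above Asic1 at 5.07, Piezo1 at 0.452 and Asic4 at 0.244. Asic2, Piezo2 and Asic3 thus led on both scales, and their order among themselves depended on the length used.

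Piezo2 was a gene of neurons and of fibroblasts. Its neuronal level was 1723 CPM for the adult sample, and the aged samples gave 1195 and 1304 CPM. In Slc47a1 fibroblasts it stood at 1427, 1431 and 1184 CPM, so that the ranges of these 2 classes overlapped. Pax9 fibroblasts held 940, 1068 and 1176 CPM, and Pdgfra fibroblasts 673, 485 and 485 CPM. SGCs lay far lower, at 227, 236 and 227 CPM, and myeloid cells were lowest, at 136, 51.0 and 67.9 CPM. Each class was tested against the mean of the other 8 by edgeR's quasi-likelihood test on UMIs summed per library and class, with the library as a block and Benjamini-Hochberg adjustment over 13944 genes. Piezo2 was 4.20-fold higher in neurons (log2 fold change 2.07 ± 0.13 SE, adjusted p = 5.0e-13), 3.44-fold higher in Slc47a1 fibroblasts (1.78 ± 0.14, adjusted p = 9.9e-11) and 2.49-fold higher in Pax9 fibroblasts (1.31 ± 0.15, adjusted p = 1.1e-07), and 7.02-fold lower in myeloid cells (-2.81 ± 0.22, adjusted p = 4.0e-11). The calls of lower Piezo2 in SGCs (-0.85), NMSC (-0.73) and endothelial cells (-0.66) were small beside these, and that in endothelial cells did not pass without the first aged library (-0.70, adjusted p = 0.063) or the second (-0.48, adjusted p = 0.18).

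Piezo1 was higher in myeloid cells, endothelial cells and Pax9 and Pdgfra fibroblasts than in neurons and SGCs. Myeloid cells held the most, at 136, 141 and 194 CPM (adult first, then the aged libraries in order), from 38, 147 and 163 UMIs. Pax9 fibroblasts stood at 63.0, 131 and 163 CPM, endothelial cells at 103, 92.7 and 100.4 CPM, and Pdgfra fibroblasts at 40.4, 84.1 and 53.5 CPM. Neurons, at 3.23, 5.17 and 5.09 CPM, and SGCs, at 3.93, 4.19 and 2.97 CPM, lay below every value of those 4 classes. The fold change of Piezo1 was 7.33 in myeloid cells (log2 fold change 2.87 ± 0.19 SE, edgeR adjusted p = 2.3e-12), 4.49 in Pax9 fibroblasts (2.17 ± 0.21), 4.19 in endothelial cells (2.07 ± 0.21) and 2.38 in Pdgfra fibroblasts (1.25 ± 0.26), while neurons were 6.61-fold lower than the mean of the other classes (-2.72 ± 0.22, adjusted p = 3.0e-11). SGCs (-2.79), MSC (-1.65) and NMSC (-1.15) were lower too, NMSC not without the adult library (-0.70, adjusted p = 0.11) or the first aged library (-1.14, adjusted p = 0.072). The increase in Pdgfra fibroblasts did not pass without the first aged library (0.91, adjusted p = 0.16). In the order of the 9 class means, the ranges of the first 3 classes overlapped from one to the next, and 2 of the 8 neighbouring pairs were apart, endothelial cells above Pdgfra fibroblasts and MSC above neurons.

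**Figure D1:**
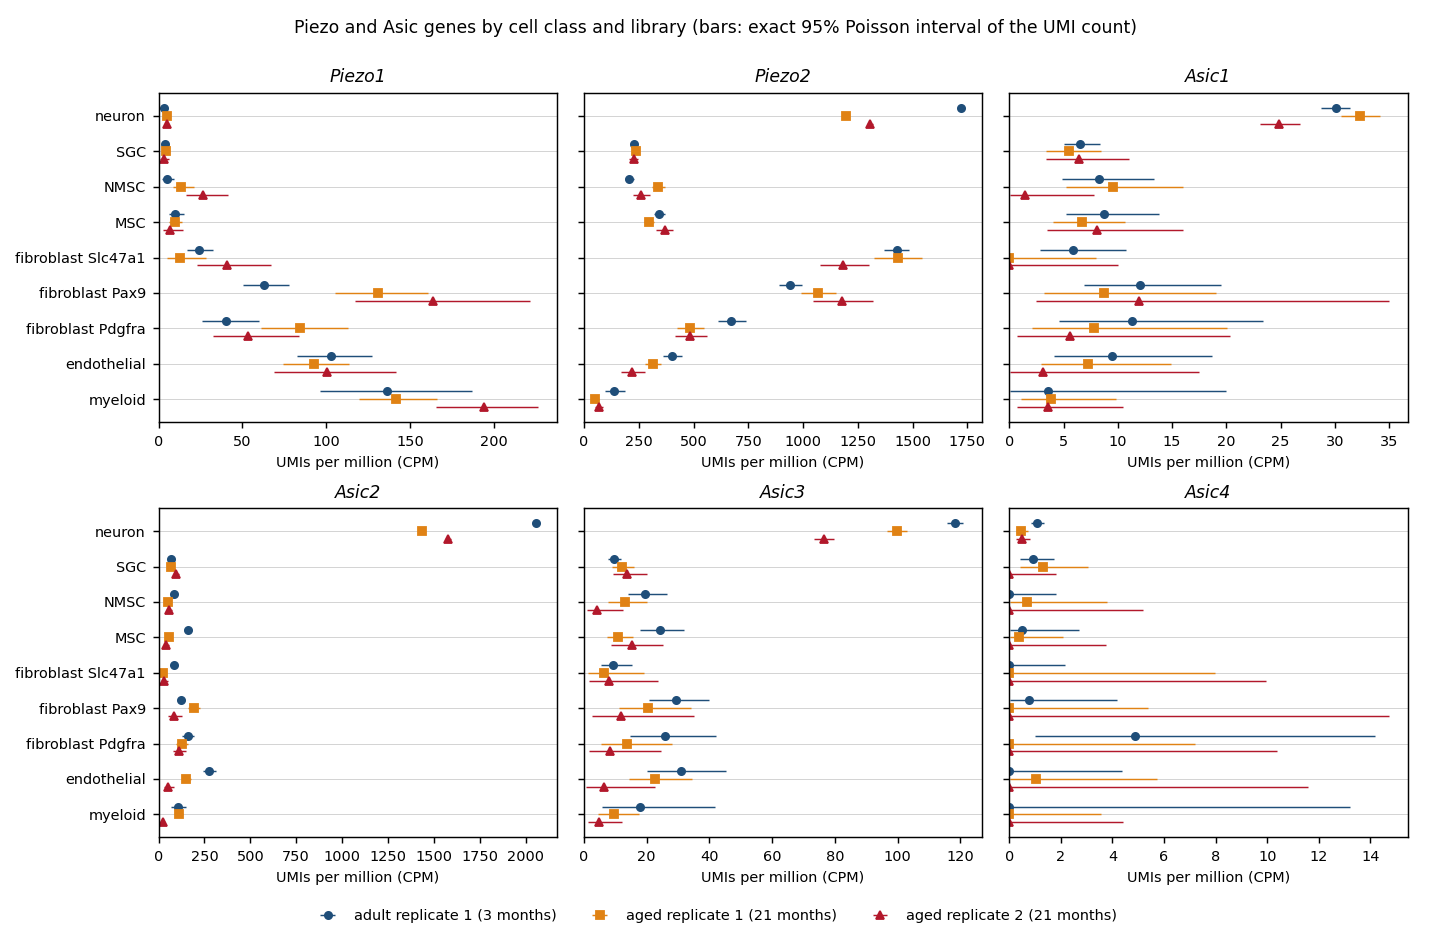
Levels in CPM (horizontal axes from 0) of the 6 genes in 9 cell classes, with a point for each library and bars for the exact 95% Poisson interval of its UMI count. Asic1, Asic2 and Asic3 stood highest in neurons in all 3 libraries, Piezo2 was high in neurons and Slc47a1 and Pax9 fibroblasts, and Piezo1 was highest in myeloid, Pax9 fibroblast and endothelial sums.

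Asic2, Asic3 and Asic1 were highest in neurons in every library. Asic2, a subunit that joins ASIC1 and ASIC3 in mixed channels, stood at 2056, 1437 and 1577 CPM in neurons and at no more than 274 CPM in any sum of another class. Asic3 stood at 118, 99.7 and 76.5 CPM in neurons and at no more than 30.8 CPM elsewhere. Asic1, which also forms the main proton-gated channel of central neurons, stood at 30.1, 32.3 and 24.9 CPM, against at most 12.0 CPM elsewhere. In no library did another class reach the neuronal level of these 3 genes. Against the mean of the other classes the neuronal level was 21.8-fold higher for Asic2 (log2 fold change 4.44 ± 0.21 SE, edgeR adjusted p = 8.6e-16), 8.02-fold for Asic3 (3.00 ± 0.14, adjusted p = 1.4e-15) and 5.15-fold for Asic1 (2.37 ± 0.18, adjusted p = 1.1e-11). Asic4, whose product gives no proton-gated current by itself, had 69, 18 and 14 UMIs in neurons and at most 9 in any other sum, and was too rare to pass the filter on low counts, so that it has no test between classes. By mean level neurons, at 0.665 CPM, came after Pdgfra fibroblasts (1.62 CPM, from 3 UMIs) and SGCs (0.739 CPM, from 14 UMIs). The ranges of all neighbouring classes in this order overlapped.

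Of the 5 genes tested, 4 were higher and 1 lower in neurons, where 66.2% of all genes tested passed in either direction. The counts of members passing in other classes were 3 lower in NMSC (background 23.4%), 2 lower in SGCs (40.3%), 1 lower in MSC (37.0%), 1 higher and 1 lower in endothelial cells (25.1%), 2 higher in Pax9 fibroblasts (18.9%), 1 higher in Pdgfra fibroblasts (17.7%), 1 higher and 3 lower in Slc47a1 fibroblasts (32.9%) and 1 higher and 2 lower in myeloid cells (53.0%). These backgrounds are large because the classes are different cell types, and they are the measure against which the member counts have to be read. Some of these calls were lost in other settings. With free RNA subtracted, none of the 3 lower ASIC calls in Slc47a1 fibroblasts passed (-7.90 for Asic2, -2.35 for Asic1 and -4.71 for Asic3). Neither did Asic2 (-8.15) or Piezo2 (-0.16) in NMSC. The SEs of these ASIC values ran from 23360 to 2.35e+06, so that the fit could not decide whether these differences remained. Without the first aged library Asic2 in NMSC (-0.88, edgeR adjusted p = 0.18) and Asic1 in Slc47a1 fibroblasts (-1.08, adjusted p = 0.17) did not pass, the latter not without the second either (-1.19, adjusted p = 0.060), and without the adult library Asic3 in Slc47a1 fibroblasts did not pass (-1.22, adjusted p = 0.12). The lower Asic3 call in myeloid cells did not pass in 6 alternatives, among them those without the first aged library (-1.09, adjusted p = 0.14) and without the second (-0.80, adjusted p = 0.086). It did not pass with free RNA subtracted either (-4.99), where an SE of 23391 left the difference undecided.

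RNA released from broken cells enters every droplet, so UMIs of a neuronal gene in another class need not come from its cells. Free RNA was taken as the profile of barcodes with 100 or fewer UMIs, in which Piezo2 stood at 965, 868 and 947 CPM, Asic2 at 864, 643 and 588 CPM and Piezo1 at 8.33, 9.91 and 9.82 CPM. Its amount, set by neuronal markers as the median over the other classes, was 627, 746 and 653 UMIs per nucleus. Estimated from single classes it ranged from 428 to 1373 UMIs for the adult, and from 338 to 1343 and 258 to 1175 UMIs for the aged samples, and every ratio below moves in inverse proportion to it. Asic2 in the 8 classes other than neurons had between 0.239 and 2.21 times the UMIs that free RNA alone would give, and Asic3 between 0.357 and 2.13 times. For Asic1 the ratio ran from 0 to 2.65. The levels of these 3 genes outside neurons were thus near that of free RNA, whereas in neurons the ratios were 52.3 to 96.8 for Asic2, 22.2 to 31.2 for Asic3 and 20.4 to 27.1 for Asic1.

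Piezo2 in fibroblasts stood clear of free RNA, with ratios of 8.84, 10.6 and 10.4 in Slc47a1 fibroblasts and 4.42, 7.61 and 8.67 in Pax9 fibroblasts. In myeloid cells the ratio for Piezo2 was 0.622, 0.365 and 0.475, below 1 at the median amount of free RNA but not, in the second aged library, at the lowest amount given above. SGCs gave 1.27, 3.27 and 3.27, and with free RNA subtracted the difference of SGCs from the other classes was 0.10 on the log2 scale with an edgeR adjusted p of 0.95. Piezo1 was over free RNA by 72.1 to 131 times in myeloid cells, 62.4 to 78.0 times in endothelial cells and 34.4 to 116 times in Pax9 fibroblasts. In neurons Piezo1 was 9.52, 12.2 and 18.7 times over free RNA, from 211, 203 and 148 UMIs.

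**Figure D2:**
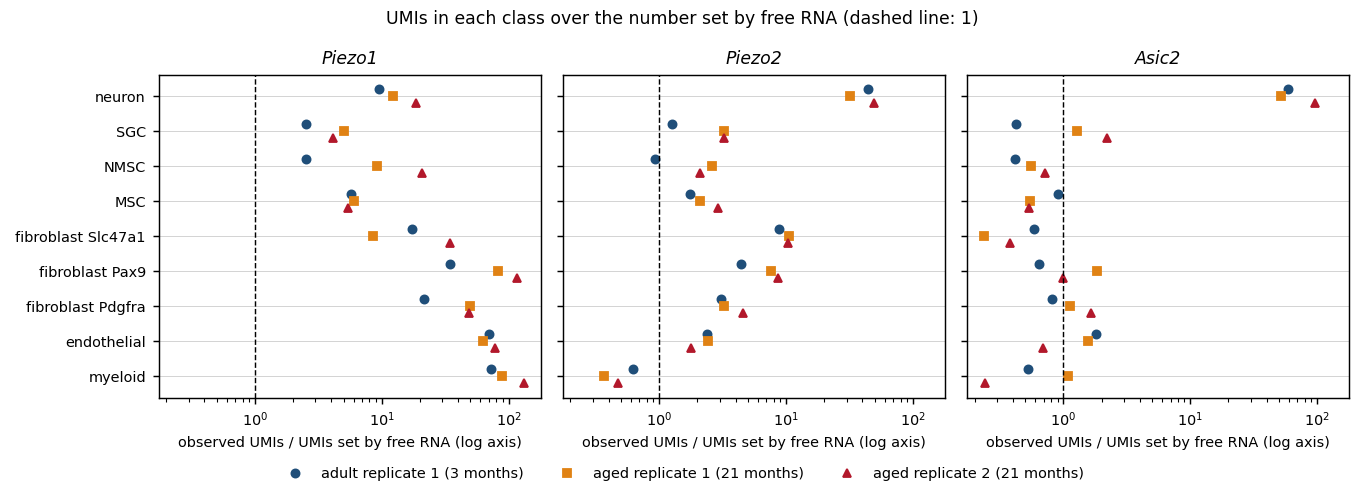
Observed UMIs of Piezo1, Piezo2 and Asic2 in each class, divided by the number that free RNA alone would give (horizontal log axis), with a point for each library and a dashed line at 1. Asic2 lay near 1 in every class but neurons, while Piezo2 in Slc47a1 fibroblasts lay at 8.84 to 10.6 and Piezo1 in myeloid cells at 72.1 to 131.

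The share of nuclei with at least 1 UMI was computed as well. A UMI of Piezo2 was found in 88.1% of adult neurons (exact 95% interval 87.1 to 89.1%) at a median of 7999 UMIs, and, as a measure of background, in 26.7% of adult myeloid nuclei at a median of 2284 UMIs. After every nucleus was thinned to 1000 UMIs, these shares were 61.3% and 8.91%. In adult Slc47a1 fibroblasts, at a median of 3448 UMIs, the share with Piezo2 was 91.5%, or 68.3% after thinning. For Asic2 the share of adult neurons was 81.6% (53.2% thinned) against 20.8% (8.91% thinned) of myeloid nuclei. A UMI of Asic1 was found in 21.6% of adult neurons, of Asic3 in 30.6%, of Piezo1 in 4.10% and of Asic4 in 1.46%, and in 0.990%, 4.95%, 26.7% and 0% of adult myeloid nuclei (for Asic4 0 of 101 nuclei, with an upper exact limit of 3.59%). Intervals here cover counting error only.

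Among neurons, UMIs of Piezo2 were found in every subtype, although no ratio to free RNA was computed for subtypes. Its mean level spanned 29.8-fold from the highest subtype to the lowest. The Th subtype, with markers of the C-fiber low-threshold mechanoreceptors that respond to gentle stroking, stood highest at 4300, 2889 and 2972 CPM. The Ntrk2 A-fiber subtype, with markers of touch-sensitive A-fibers, followed at 3339, 2267 and 2803 CPM, and its range overlapped that of Th, although Th was higher within each library. Kcnh5 A-fibers stood at 1883, 1651 and 1721 CPM. The Trpm8 subtype, named for the cold-activated channel, was lowest at 150.4, 136 and 54.7 CPM. Against the mean of the other 10 subtypes (edgeR as above, 15563 genes), Piezo2 was 4.47-fold higher in Th (log2 fold change 2.16 ± 0.14 SE, adjusted p = 4.3e-14), 3.61-fold in Ntrk2 A-fibers (1.85 ± 0.14, adjusted p = 5.7e-12) and 2.30-fold in Kcnh5 A-fibers (1.20 ± 0.15, adjusted p = 6.9e-08), and 10.1-fold lower in Trpm8 (-3.33 ± 0.23, adjusted p = 5.6e-13). Pvalb A-fibers, which hold markers of proprioceptors, came sixth in the order at 1406, 1019 and 1110 CPM, and their difference (0.44 ± 0.16, adjusted p = 0.027) did not pass when any 1 of the 3 libraries was left out (0.38 to 0.52, adjusted p = 0.069 to 0.087). Piezo2 passed in 6 subtypes as higher and in 4 as lower, the latter being Trpm8, Sst and Nppb (-1.81), peptidergic C-fibers (-1.24) and the Mrgpra3 cluster (-0.71, and -0.47 without the adult library, where it did not pass).

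Piezo1 was rare in neurons and stood highest in the Sst and Nppb subtype, which holds markers of itch neurons. Its level there was 26.7, 51.6 and 64.6 CPM, from 31, 41 and 47 UMIs, and no sum of another subtype exceeded 23.0 CPM. The fold over the mean of the other subtypes was 13.2 (log2 fold change 3.73 ± 0.33 SE, edgeR adjusted p = 1.3e-10). The subtype made up 1.65%, 2.54% and 2.76% of neurons and held 119 of the 562 neuronal UMIs of Piezo1. The Mrgpra3 cluster passed as well (1.57 ± 0.44, adjusted p = 0.0058), but 29 of its 40 UMIs were in the first aged library, and without that library the difference did not pass (0.55, adjusted p = 0.65). In the other 9 subtypes the level of Piezo1 lay between 0 and 7.13 CPM.

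Asic3 was most specific to the peptidergic A-fiber subtype, which was named from the markers Bmpr1b, Smr2, Chrna7, Hgf and Kit. Calca, Nefh and Avpr1a, on the same list, did not count toward its name, so that neither the peptidergic nor the A-fiber part rests on Calca or Nefh. In the Htr3a cluster, Calca and Nefh of that list did count. Of the 8 markers on the list, 4 were highest in peptidergic A-fibers. Asic3 stood in this subtype at 438, 314 and 280 CPM, above every other subtype sum. The Htr3a cluster, which held little Malat1 (log2 fold change -2.66 against the other subtypes), came second with 252, 201 and 143 CPM, followed by Kcnh5 A-fibers with 106, 174 and 160 CPM and Pvalb A-fibers with 120, 108 and 113 CPM. Th, Mrgprd and the Mrgpra3 cluster were at or below 15.8 CPM in all 3 libraries. The fold of peptidergic A-fibers over the mean of the other subtypes was 12.9 (log2 fold change 3.69 ± 0.15 SE, edgeR adjusted p = 4.7e-18), and that of the Mrgpra3 cluster was 0.117 (-3.09 ± 0.44, adjusted p = 1.9e-06). Asic3 passed in all 11 subtypes, in 5 as higher and in 6 as lower. The lower call in Ntrk2 A-fibers (-1.12) turned to 1.66 with the coarser clustering at resolution 0.4 (adjusted p = 1.2e-08) and to 0.01 after thinning. At resolution 0.4 the cluster of that name, of 313, 141 and 82 nuclei, also held Kcnh5 and Vwc2l, the markers that name Kcnh5 A-fibers. The value of 1.66 is therefore not of Ntrk2 A-fibers alone.

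Asic1 was high in 3 subtypes that did not overlap with the others. It stood at 88.6, 107 and 115 CPM in the Htr3a cluster, at 86.9, 85.7 and 88.9 CPM in Pvalb A-fibers and at 76.4, 86.8 and 86.8 CPM in Trpm8. The next subtype, peptidergic A-fibers, stood at 23.5, 21.1 and 33.2 CPM. The Mrgprd subtype, non-peptidergic nociceptors, held 4.86, 3.24 and 2.11 CPM, and the Mrgpra3 cluster 5, 2 and 0 UMIs. The log2 fold change over the mean of the other subtypes was 2.93 ± 0.14 (SE) in the Htr3a cluster, 2.68 ± 0.12 in Pvalb A-fibers and 2.54 ± 0.15 in Trpm8, with edgeR adjusted p of 1.2e-16, 3.8e-17 and 1.4e-14. Among these, the range of Pvalb A-fibers overlapped those of the Htr3a cluster and of Trpm8, while the Htr3a cluster lay above Trpm8 in all libraries. The lower call in Kcnh5 A-fibers (-0.60) turned to 0.25 (adjusted p = 0.22) with clusters made without integration.

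Asic2 was broad among neurons, with a highest mean 21.2 times the lowest. Th again stood highest, at 3999, 3237 and 3365 CPM, followed by Pvalb A-fibers at 3638, 1924 and 1862 CPM and Mrgprd at 2743, 2193 and 2306 CPM. The Htr3a cluster was lowest, at 220, 131 and 150 CPM, below every other subtype sum. Relative to the mean of the other subtypes Asic2 was 4.29-fold higher in Th (log2 fold change 2.10 ± 0.11 SE, edgeR adjusted p = 5.0e-16), 2.85-fold in Mrgprd (1.51 ± 0.12) and 2.71-fold in Pvalb A-fibers (1.44 ± 0.12), and 7.13-fold lower in the Htr3a cluster (-2.83 ± 0.18, adjusted p = 2.0e-14). The call in Pvalb A-fibers turned to -2.09 with clusters made without integration, where the cluster of that name was made of nuclei with little Malat1. In the Htr3a cluster Asic1 was thus highest and Asic2 lowest among the subtype means. This cluster is made of nuclei with little Malat1. In 4 other subtypes that could be split by Malat1 (Pvalb and Ntrk2 A-fibers, Mrgprd and Th), Asic2 was lower in the nuclei with little Malat1 in every library, and Asic1 was higher in every library but the first aged one of Ntrk2 A-fibers (5.04 against 6.02 CPM, from 2 and 4 UMIs). The part of this in the values of the Htr3a cluster was not tested.

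Asic4 had 101 UMIs in neurons, of which 29 were in peptidergic A-fibers and 23 in Kcnh5 A-fibers. These were also the subtypes with the highest levels, at 2.20, 0.960 and 1.34 CPM and at 2.83, 1.32 and 1.20 CPM. In the other subtypes the level lay between 0 and 1.48 CPM, and no pair of neighbours in the order was apart. No test between subtypes was made, as the gene was under the filter.

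**Figure D3:**
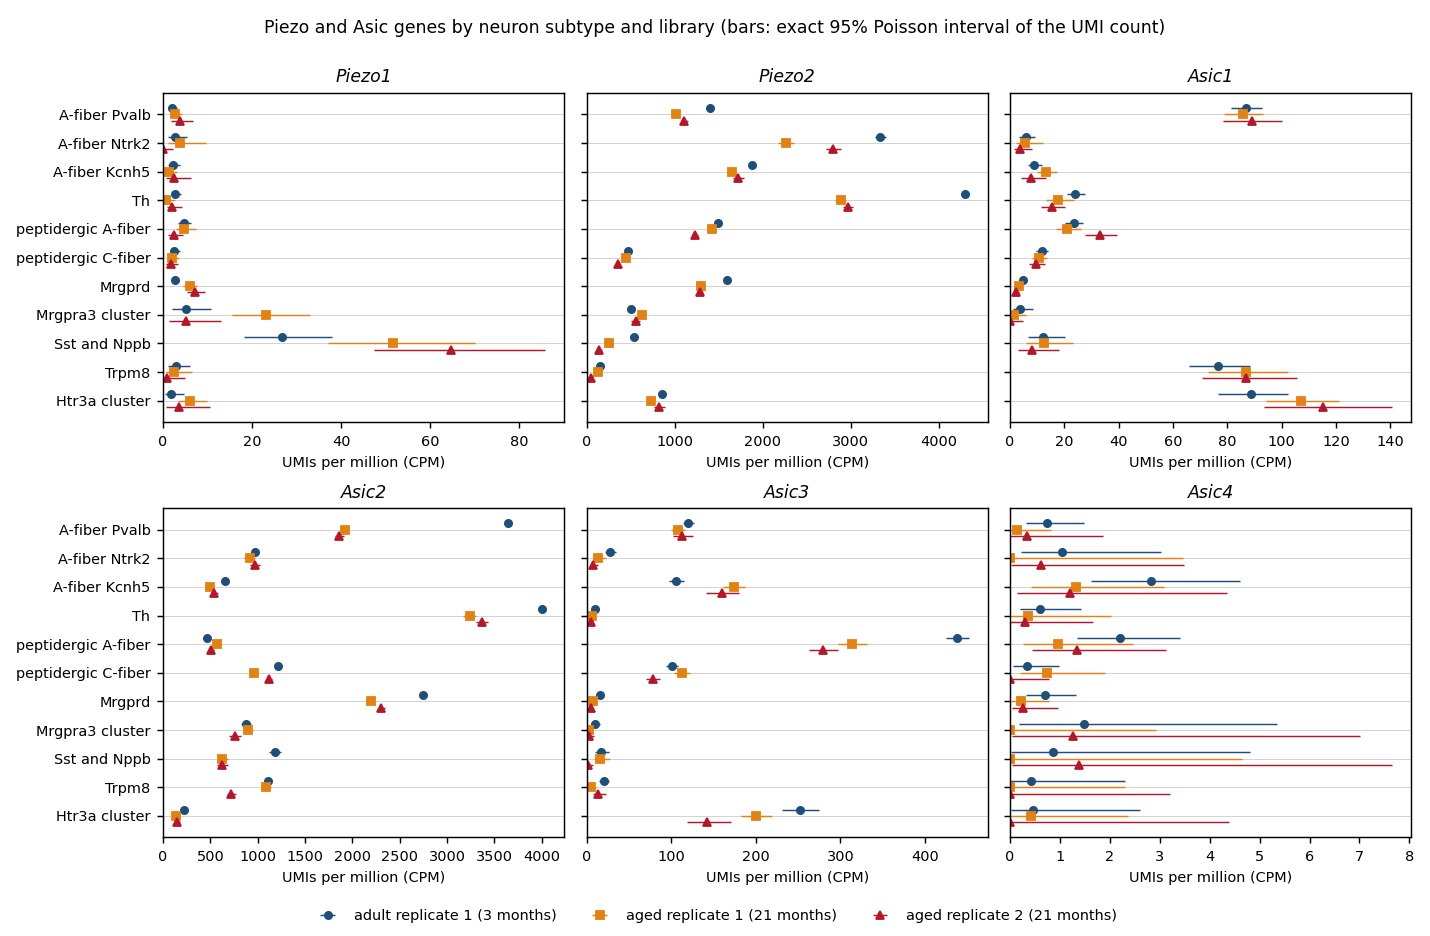
Levels in CPM (horizontal axes from 0) of the 6 genes in 11 neuron subtypes, with a point for each library and bars for the exact 95% Poisson interval of its UMI count. Piezo2 and Asic2 peaked in Th, Asic3 in peptidergic A-fibers, Asic1 in the Htr3a cluster, Pvalb A-fibers and Trpm8, and Piezo1 in Sst and Nppb neurons.

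Per subtype, the members tested and passing were 4 higher in Pvalb A-fibers (42.9% of all genes passed), 1 higher and 2 lower in Ntrk2 A-fibers (26.8%), 2 higher and 2 lower in Kcnh5 A-fibers (55.8%), 2 higher and 1 lower in Th (37.2%), 3 higher and 1 lower in peptidergic A-fibers (49.5%), 1 higher and 3 lower in peptidergic C-fibers (34.9%), 2 higher and 2 lower in Mrgprd (38.9%), 1 higher and 3 lower in the Mrgpra3 cluster (33.1%), 1 higher and 3 lower in Sst and Nppb (28.5%), 1 higher and 2 lower in Trpm8 (26.8%) and 2 higher and 1 lower in the Htr3a cluster (67.1%), each of 5. Beside the losses given above, the lower calls of Piezo1 (-1.25, edgeR adjusted p = 0.073) and Asic1 (-0.62, adjusted p = 0.058) in peptidergic C-fibers did not pass without the adult library, and that of Piezo1 not without the first aged library (-0.86, adjusted p = 0.25) or the second (-1.0, adjusted p = 0.089) either. The lower call of Asic2 in Sst and Nppb neurons did not pass without the first aged library (-0.30, adjusted p = 0.27) or the second (-0.33, adjusted p = 0.23), and that of Asic1 in Kcnh5 A-fibers not without the adult library (-0.30, adjusted p = 0.39). Over the 11 subtype means of log2(CPM + 1), the profiles of the members were only loosely related. The Pearson correlations ranged from -0.52 for Asic2 with Asic3 to 0.51 for Asic1 with Asic3, and Piezo2 with Asic2 gave 0.24. These points share libraries and depth, and are given as a description.

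Clusters with under 0.5 of the median Malat1 share held 21.2% of adult neurons and 40.8% and 29.2% of aged neurons, and the members differed within a subtype with this share. In Pvalb A-fibers, Asic2 stood at 466, 210 and 161 CPM in nuclei of clusters with little Malat1 and at 4495, 3083 and 2836 CPM in the other clusters of that subtype. Piezo2 stood at 775, 784 and 886 CPM against 1576, 1178 and 1239 CPM. Asic1 went the other way, at 110.1, 111 and 112 CPM against 80.7, 68.4 and 76.0 CPM. Asic3 stood at 97.4, 84.5 and 83.9 CPM against 126, 124 and 130.4 CPM. The ranges of the 2 parts did not overlap for any of these 4 genes. Within Th, Asic2 stood at 703, 913 and 514 CPM in the part with little Malat1 and 4723, 3615 and 3637 CPM in the rest, and Asic1 at 41.9, 39.0 and 51.4 CPM against 20.2, 14.4 and 12.1 CPM. What sets these clusters apart was not tested.

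**Figure D4:**
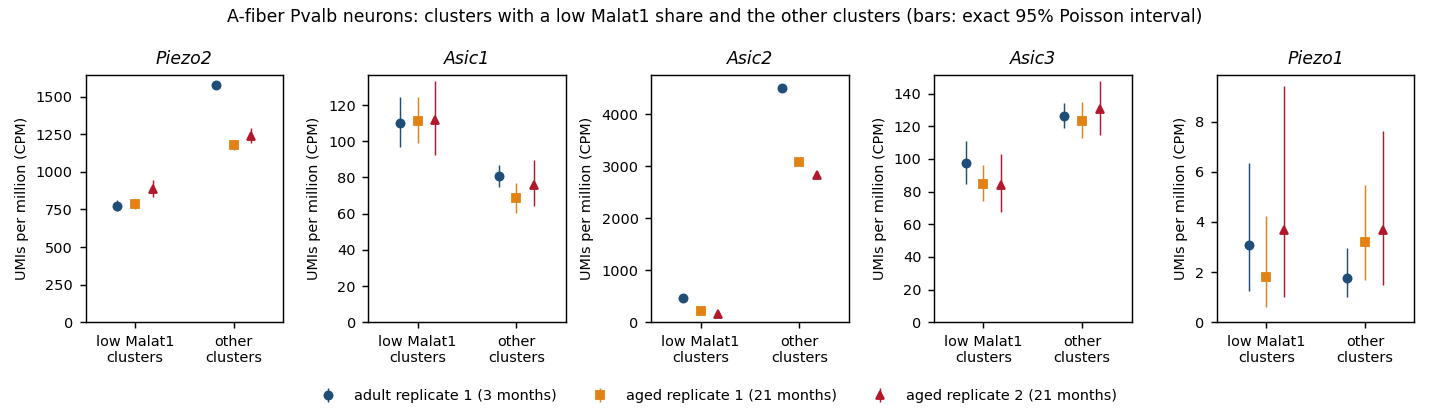
Levels in CPM (vertical axes from 0) of 5 genes in Pvalb A-fiber nuclei, split into clusters with a low Malat1 share and the other clusters, with a point for each library and bars for the exact 95% Poisson interval. Asic2 was lower and Asic1 higher in the clusters with little Malat1 in all 3 libraries.

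The study collected these libraries to see how age alters the transcripts of SGCs, and here the adult library was compared with the 2 aged libraries. A gene's own spread in this comparison comes from the aged libraries alone, with 1 residual degree of freedom, and the lone adult library is assumed to vary like them. The edgeR fit moderates this spread toward a trend over all genes. The adjusted p-values of age differences thus rest in large part on the spread of other genes. The neuronal level of Piezo2 was 1195 and 1304 CPM with age against 1723 CPM without. Both aged libraries also lay below the adult library for Asic2 (1437 and 1577 against 2056 CPM) and Asic3 (99.7 and 76.5 against 118 CPM), whereas the range of Asic1 overlapped and Piezo1 lay higher in both (5.17 and 5.09 against 3.23 CPM). By comparison, 30.3% of the 21808 neuronal genes with the most UMIs were lower and 49.0% higher in both aged libraries. The median gene stood 0.11 higher (log2) with age in plain CPM, and the fitted fold changes, which are scaled by TMM, are relative to about that shift. On the fitted scale the log2 fold change was -0.58 ± 0.23 (SE) for Piezo2 (edgeR adjusted p = 0.10), -0.57 ± 0.23 for Asic2 (adjusted p = 0.12), -0.55 ± 0.22 for Asic3 (adjusted p = 0.12), -0.19 ± 0.23 for Asic1 (adjusted p = 0.71), 0.55 ± 0.31 for Piezo1 (adjusted p = 0.33) and -1.29 ± 0.47 for Asic4 (adjusted p = 0.064), the last from 69, 18 and 14 UMIs. No member passed in neurons, where 8.46% of 21808 genes did.

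Whether the age differences of Piezo2, Asic2 and Asic3 passed in neurons depended on which neurons were summed, while their size moved little. Piezo2 passed when each subtype was given the same weight (-0.50, edgeR adjusted p = 0.018), when clusters with little Malat1 were left out (-0.58, adjusted p = 0.018) and with clusters made without integration (-0.67, adjusted p = 0.042). Asic2 passed under the first of these changes (-0.54, adjusted p = 0.0085) and the second (-0.52, adjusted p = 0.030), and Asic3 under the second (-0.57, adjusted p = 0.038). Without integration, the neuron sums left out a cluster with Mrgprd markers of 0 adult and 70 and 77 aged nuclei. Clusters of 28 and 24 nuclei, all adult, were left out too. A cluster of 416, 138 and 53 nuclei with neuron markers was named NMSC and so was missing as well. The part of this in the value of Piezo2 was not tested. The share of the Th subtype, which was highest in Piezo2 and Asic2, was 13.01% of adult neurons and 6.01% and 11.4% of aged neurons. Malat1 fell with age in neurons by 1.69 on the log2 scale (SE 0.24, adjusted p = 2.2e-10). Its part in the differences of the members was not tested, and depth, RNA quality and age cannot be told apart with 1 adult library.

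Within subtypes, Piezo2 was lower in both aged libraries in 10 of 11 subtypes with at least 30 UMIs, Asic2 in 9 of 11 and Asic3 in 8 of 10. For Asic1 this held in 3 of 9 subtypes and for Piezo1 in 2 of 7. Of all genes with 30 or more UMIs in a subtype, the share lower in both aged libraries was 20.2% in Kcnh5 A-fibers, 15.5% in Ntrk2 A-fibers, 26.1% in Pvalb A-fibers, 25.6% in the Htr3a cluster, 20.5% in the Mrgpra3 cluster, 29.3% in Mrgprd, 21.0% in Sst and Nppb, 23.8% in Th, 20.2% in Trpm8, 21.9% in peptidergic A-fibers and 26.0% in peptidergic C-fibers. The subtypes come from the same 3 libraries, so these counts are not independent of each other. The tests within subtypes passed for few of these. In Pvalb A-fibers Asic2 fell from 3638 to 1924 and 1862 CPM (log2 fold change -1.16 ± 0.13 SE, edgeR adjusted p = 0.00011), and still fell by 0.86 (adjusted p = 0.00067) when its nuclei with little Malat1 were left out. Piezo2 fell there from 1406 to 1019 and 1110 CPM (-0.62 ± 0.14, adjusted p = 0.0098), and by 0.64 (adjusted p = 0.0096) without the nuclei with little Malat1. In those nuclei alone Piezo2 was instead higher in both aged libraries (784 and 886 against 775 CPM), and they were 262 of 761 nuclei of this subtype for the adult and 345 of 538 and 109 of 181 for the aged samples. Asic2 and Piezo2 were thus 2 of 5 members tested in Pvalb A-fibers, against 7.65% of genes that passed as lower. In the Htr3a cluster Asic2 (-0.77 ± 0.19, adjusted p = 0.0024) and Asic3 (-0.63 ± 0.18, adjusted p = 0.015) fell, where 2.57% of genes did.

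Asic3 fell in peptidergic A-fibers, its highest subtype, from 438 to 314 and 280 CPM (log2 fold change -0.80 ± 0.13 SE, edgeR adjusted p = 0.0034), where 4.03% of genes passed as lower. In Mrgprd it stood at 15.8, 8.09 and 5.55 CPM and fell as well (-1.32 ± 0.30, adjusted p = 0.00046, background 7.30%). Piezo2 fell in Sst and Nppb neurons from 542 to 259 and 146 CPM (-1.59 ± 0.44, adjusted p = 0.024, background 1.53%). Piezo1 stood higher in these neurons in both aged libraries, at 51.6 and 64.6 CPM against 26.7 CPM, but did not pass (0.96 ± 0.53, adjusted p = 0.98). In the same sums Malat1 was lower in both aged libraries in all 11 subtypes, by 1.49 to 2.21 on the log2 scale.

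**Figure D5:**
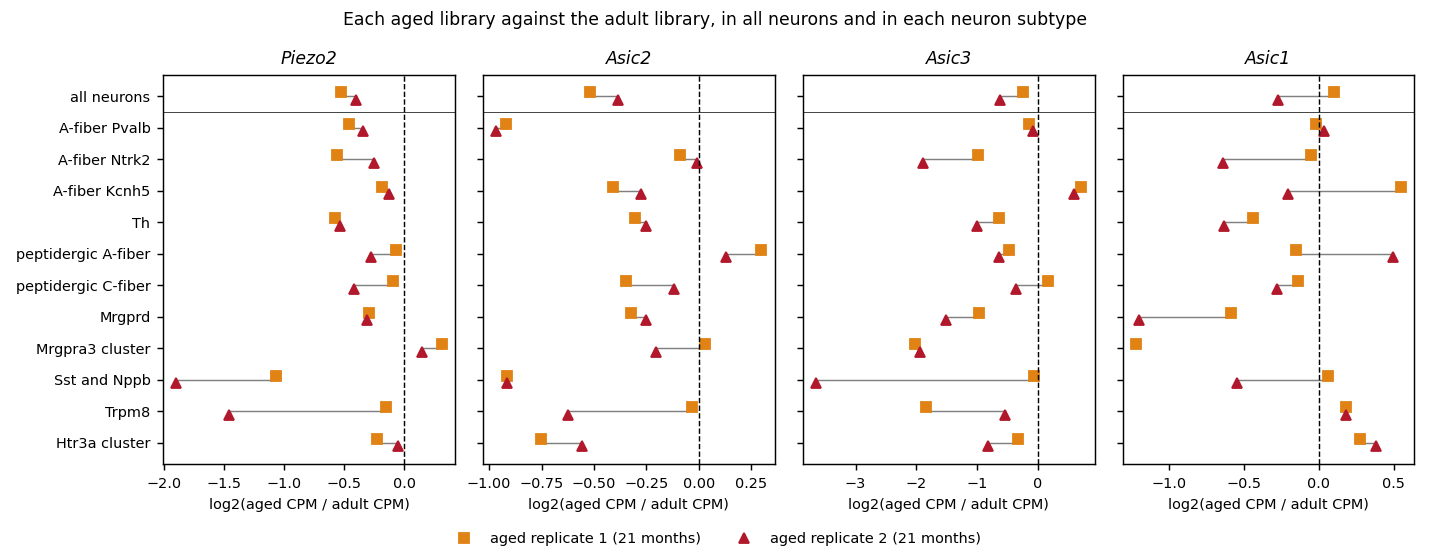
The log2 ratio of CPM in each aged library to CPM in the adult library (horizontal axes, dashed line at 0) for Piezo2, Asic2, Asic3 and Asic1 in all neurons and in each subtype, with a line joining the 2 aged libraries. Both points lay below 0 in 10 of 11 subtypes for Piezo2 and in 9 of 11 for Asic2, while those of Asic1 lay on both sides, and the second aged library of Asic1 in the Mrgpra3 cluster, at 0 UMIs, is not drawn.

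Outside neurons 4 age differences passed, all lower with age. Asic2 fell in MSC from 158 to 57.2 and 42.6 CPM (log2 fold change -1.70 ± 0.19 SE, edgeR adjusted p = 1.0e-05, background 4.83%), in endothelial cells from 274 to 150.4 and 53.3 CPM (-1.37 ± 0.36, adjusted p = 0.011, background 1.58%) and in Slc47a1 fibroblasts from 85.3 to 23.8 and 27.0 CPM (-1.82 ± 0.35, adjusted p = 0.037, background 0.727%). These sums held 0.239 to 1.80 times the Asic2 that free RNA alone would give, and free RNA itself held less Asic2 in the aged libraries. With free RNA subtracted the endothelial difference did not pass (-1.99, adjusted p = 0.38), and no such value was had for the other 3 of these 4 differences. Without the first aged library the endothelial value was -2.37 and without the second -0.94. Piezo2 fell in myeloid cells from 136 to 51.0 and 67.9 CPM (-1.17 ± 0.32, adjusted p = 0.035, background 4.20%), where its ratio to free RNA was below 1 at the median amount. Piezo1 did not pass with age in any of the 16 sums in which it was tested. The closest was NMSC, at 4.89, 13.6 and 26.7 CPM (1.74 ± 0.61, adjusted p = 0.050), which missed the threshold.

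Whether age moved the members differently in neurons and in SGCs was tested in a model with both classes. The difference between the age effects, neurons minus SGCs, was -0.66 ± 0.24 (SE) for Asic2 (edgeR adjusted p = 0.15), -0.77 ± 0.30 for Asic3 (adjusted p = 0.21), -0.46 ± 0.22 for Piezo2 (adjusted p = 0.40), 0.79 ± 0.55 for Piezo1 (adjusted p = 0.69) and 0.17 ± 0.37 for Asic1 (adjusted p = 0.95). For Asic4 it was -0.99 ± 1.25 (adjusted p = 0.89). No member passed, and 2.73% of all genes did. In SGCs the ratio to free RNA was 0.423 to 2.21 for Asic2 and 0.394 to 2.13 for Asic3. The SGC side of these 2 differences was thus near free RNA.

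The genes whose profile was most like that of each member were found over the 9 class means and 11 subtype means of log2(CPM + 1), among 14607 genes. For Asic2 they were Mir124a-1hg (Pearson r = 0.94), Syt1, which encodes the calcium sensor of synaptic vesicles (0.94), and Pcnx2 (0.94). For Asic3 they were Sapcd1 (0.93), Grid2ip (0.93) and Elfn1 (0.92). For Piezo1 they were Ang (0.92), Gm20707 (0.91) and F11r, which encodes a junctional adhesion molecule (0.91). Piezo2 and Asic1 had looser partners, with Aox1 (0.84), Trpc5 (0.83) and Kcnab1 (0.82) for Piezo2 and D930028M14Rik (0.84), Slitrk3 (0.83) and Kndc1 (0.83) for Asic1. Asic4 had too few UMIs for this measure. The 20 points share libraries and free RNA, and the subtypes lie within the neuron class.

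A list of 37 other gene symbols of mechanical and acid sensing, 36 of them in the files, was set beside the members. In neurons 27 were tested, of which 13 were higher and 9 lower than in the other classes (66.2% of all genes passed), with a median log2 fold change of 0.16 against -0.0020 for all genes. Those higher included Kcnk10 (3.54), a stretch-sensitive potassium channel, Tmem63c (3.44), Tmem150c (2.98) and the heat- and acid-gated channel gene Trpv1 (2.78). Mdfic (-5.28) and Mdfi (-3.54), whose products bind PIEZO channels, were lower in neurons, as Piezo1 was, whereas Piezo2 was higher there. The other list genes lower in neurons were Tmem63a, Gpr65, Gpr132, Tmem87a, Pkd2, Trpv4 and Mtmr2. With age, 4 of 36 list genes passed in neurons, where 8.46% of all genes did. Stom, the gene of the membrane protein stomatin, rose (1.06 ± 0.27 SE, edgeR adjusted p = 0.0029), while Tmc1 (-1.97 ± 0.23), Kcnk4 (-1.85 ± 0.26) and Scnn1a (-1.01 ± 0.35, adjusted p = 0.043) fell. The median over the list was -0.01 against 0.02 over all genes. Tmc1 also passed as lower with age in SGCs (-1.42), NMSC (-2.18) and MSC (-1.48), and Kcnk4 in SGCs (-1.79). Stom and Scnn1a had no call in these classes. No list gene passed in the comparison of age effects between neurons and SGCs, where 2.73% of all genes did.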

How the data were processed

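Nuclei of lumbar DRG were profiled by droplet single-nucleus RNA-seq (PIP-seq) in 1 adult and 2 aged libraries. The deposited values are UMI counts per gene and barcode, unfiltered, which the authors made with the PIPseeker pipeline against mm10 (build per the submitters' processing notes). The adult library held 167664164 UMIs and the aged libraries 95647106 and 69045987. Whether intronic reads or strand were counted is not given in the sources used here.

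Barcodes with over 1000 genes were kept and clustered without the 6 genes in Seurat 5.3.0 (SCTransform, reciprocal PCA, 30 components, resolution 0.8). Clusters were named from marker lists by a rule written after the clusters were seen, and mixed clusters (1380, 777 and 360 nuclei) were left out. No doublet caller was run, and an alternative left out the 5% of nuclei with the most UMIs. Counts were summed per library and class or subtype with 20 or more nuclei and tested with edgeR 4.0.16 (quasi-likelihood, TMM, filterByExpr, Benjamini-Hochberg adjustment over all genes, threshold 0.05). Each class or subtype was set against the mean of the others with the library as a block, which pairs sums of the same tissue. The SE is the size of the log2 fold change over the square root of F. CPM is the UMIs of a gene over all UMIs of its sum, scaled to a common total. Intervals are exact (Poisson for counts, Clopper-Pearson for shares) at 95% and cover counting error only. The scripts were tested on simulated counts. Alternatives used DESeq2 1.42.0, RLE scaling, no filter, 2000 genes, scanpy 1.11.5 clusters without integration, resolution 0.4, thinning to 1000 UMIs, subtracted free RNA, left-out clusters with little Malat1, equal subtype weights, no block and each library left out. For age differences outside the neuron sum and for the neuron and SGC comparison, subtracted free RNA and left-out clusters with little Malat1 were added after seeing the data.

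The genes named are the 6 members, the 3 genes most like each (500 or more UMIs), and genes of the sensing list past the threshold, up to 10 per comparison by size. Members and lists were chosen with earlier results of these data known. Age is given as labelled (3 and 21 months), while the design text names other ages.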

Additional observations from a re-analysis of the deposited data

Results flagged for a closer look

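In some sums both aged libraries moved one way while in other sums of the same gene both moved the other way. Of these differences between sums, only that between neurons and SGCs was tested, for which neither Asic2 (-0.66 ± 0.24 SE, neurons minus SGCs, edgeR adjusted p = 0.15) nor Asic3 (-0.77 ± 0.30, adjusted p = 0.21) passed. The ratio of mean aged to adult CPM of Piezo1 was 0.936 in endothelial cells, where 5 classes were higher in both aged libraries, and 0.526 in Th and 0.753 in peptidergic C-fibers, where 3 subtypes were higher. For Piezo2 it was 1.44 in NMSC and 1.19 in Pax9 fibroblasts, while 4 classes were lower, and 1.17 in the Mrgpra3 cluster, while 10 subtypes were lower. Asic1 stood at 1.26 in the Htr3a cluster and 1.14 in Trpm8, with 3 subtypes lower. For Asic2 the ratio was 1.21 in SGCs, with 6 classes lower, and 1.16 in peptidergic A-fibers, with 9 subtypes lower. Asic3 gave 1.35 in SGCs, with 5 classes lower, and 1.57 in Kcnh5 A-fibers, with 8 subtypes lower. The SGC levels of Asic2 and Asic3 were near free RNA, at 0.423 to 2.21 and 0.394 to 2.13 times the UMIs that it alone would give.

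Nuclei left out as mixed also held Piezo1. A cluster of 207, 149 and 103 nuclei, which held markers of B and T cells, had 77.4, 96.2 and 138 CPM in the adult and the 2 aged libraries. Another, of 136, 21 and 12 nuclei, led by Ranbp3l, Atp13a5 and Slc22a8, had 39.8, 51.4 and 75.2 CPM. These values lie above the neuronal level of Piezo1 in every library.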

How the results depend on the processing

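No paired analysis was possible because nothing in the labels pairs an adult with an aged library, so that no block could be fitted between ages. For classes and subtypes the library was the block, and the fit without the block kept the direction of all 63 called levels it was run on and lost 5 of the 53 outside the leading classes and subtypes, among them Piezo2 in Pvalb A-fibers (0.44, adjusted p = 0.18). For the 5 genes tested (not Asic4), the level in the leading class or subtype kept its direction and call under all alternatives run.

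Age differences in neurons that were not past the threshold passed it in some alternatives. Piezo2 passed with clusters made without integration (-0.67), without low Malat1 clusters (-0.58) and at equal subtype weights (-0.50), Asic2 in the last 2 (-0.52 and -0.54) and Asic3 without low Malat1 clusters (-0.57). Asic1 turned to 0.15 with clusters made without integration and to 0.13 after thinning, and its difference between the age effects in neurons and SGCs turned to -0.15 without low Malat1 clusters. The neuron sums made without integration lacked a cluster with Mrgprd markers of 0 adult and 70 and 77 aged nuclei. They also lacked clusters of 28 and 24 nuclei, all adult, and one of 416, 138 and 53 nuclei that was named NMSC. Leaving out 1 aged library gave values with no test. In neurons these ran from -0.68 to -0.50 for Piezo2, -0.67 to -0.48 for Asic2, -0.73 to -0.40 for Asic3, -0.37 to -0.05 for Asic1, -1.35 to -1.23 for Asic4 and 0.53 to 0.56 for Piezo1, and for the difference between neurons and SGCs from -0.56 to -0.33 for Piezo2, -0.80 to -0.50 for Asic2, -1.09 to -0.55 for Asic3, -0.17 (without the first aged library) to 0.38 for Asic1 and 0.62 to 1.13 for Piezo1.

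Single levels that turned were Asic2 (4.75) and Piezo2 (1.37) in NMSC, Asic2 in Pvalb A-fibers (-2.09) and Asic1 in Kcnh5 A-fibers (0.25) with clusters made without integration, Piezo2 in SGCs (0.10) and endothelial cells (0.52) with free RNA subtracted, and Asic3 in Ntrk2 A-fibers at resolution 0.4 (1.66) and after thinning (0.0093). The NMSC sums of those clusters included a cluster of 416, 138 and 53 nuclei that also held the neuron markers Snap25, Snhg11, Syt1 and Isl1, so that these values are not of NMSC alone. The Pvalb A-fiber cluster made without integration was one of nuclei with little Malat1. The Ntrk2 A-fiber cluster at resolution 0.4 also held the Kcnh5 and Vwc2l markers, so that its value is not of Ntrk2 A-fibers alone. The cause of the others was not tested. Over all alternatives 58 of 744 single values kept their direction and lost their call. Resolution 0.4 gave no Slc47a1 fibroblast, myeloid or Kcnh5 A-fiber sums, and leaving out low Malat1 clusters removed the Htr3a cluster. Asic4 and, in neurons, Piezo1 are limited by depth, and the age comparison by its single adult library.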

Other observations

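Mural nuclei, 57, 18 and 3 in the 3 libraries, were too few for a test. They held 3, 2 and 1 UMIs of Piezo1 and 22, 8 and 0 UMIs of Piezo2.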
